A study of Mus musculus with 8 samples.

Results

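The 10 genes described here, Ctgf, Cyr61, Thbs1, Thbs4, Postn, Tnc, Sparc, Spp1, Mgp and Timp1, encode secreted proteins of the extracellular matrix that are linked to fibrosis. They were taken as a named list and matched by gene name, and all 10 were found among 49584 features. The series asked what TEFM, an elongation factor of the mitochondrial RNA polymerase, does for mitochondrial gene expression. It sequenced RNA of crude mitochondria from the hearts of 4 knockout and 4 control mice. Knockouts carried loxP-flanked Tefm (L/L) and cre (genotype label Tefm -/-), with cre driven by the muscle creatine kinase promoter. This promoter acts in heart and skeletal muscle cells, so fibroblasts, vascular cells and leukocytes of the knockout hearts are taken to keep Tefm. Controls were L/L without cre in their titles (genotype label Tefm +/+). The sources used here name no age, sex or strain.

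Matricellular proteins are secreted into the matrix but do not build its fibres. They bind integrins, proteoglycans and growth factors and set how cells respond to the matrix. In the adult heart most are low, and they come up after pressure load, infarction or other stress, from stressed cardiomyocytes, activated fibroblasts or macrophages. TGF-beta and the YAP-TEAD factors are well known inducers of Ctgf and Cyr61, and Postn marks activated cardiac fibroblasts.

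Library totals were 21108165 to 25393933 counts in knockouts and 26268804 to 27403415 in controls. RNA from mitochondrial DNA made up 38.7% to 59.3% of counts in knockouts and 72.3% to 74% in controls. Knockout 1 stood apart from the other knockouts, with the highest share, 59.3%, against 38.7% to 44.2%. Tefm itself held 166, 233, 230 and 245 counts in knockouts 1 to 4, against 110, 117, 106 and 144 in controls 1 to 4 (log2 fold change 0.14, SE 0.11, adjusted p = 0.324), and as the labels place the deletion in an exon, counts summed over the gene do not test it. Cardiomyocyte markers summed to 8189 to 12959 CPM (counts scaled to library size with the TMM factors of edgeR) in knockouts and 15798 to 16605 CPM in controls, so heart muscle RNA was abundant in both groups. Of these 8 markers 2 rose and 5 fell, 2 of which (Myh6 and Myl2) were positive under library totals alone (0.22 and 0.38). Crude mitochondria also carry RNA of other compartments, and altered tissue levels and altered co-purification cannot be told apart. In bulk RNA more cells of a type and more RNA per cell cannot be told apart either.

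Promoter windows from RefSeq (build GRCm38.p6, 250 bases before to 50 after the start) were at hand for 7 of the 10 genes. Ctgf, Thbs1 and Mgp were the 3 without a window. Shown are the windows of Thbs4 and Postn, which had the largest rises among these 7, and of Cyr61, a known target of YAP and TEAD that moved little. Capitals mark motifs, which were searched on both strands. The letters GGAATG stand for the TEAD factors, partners of YAP. The letters TGANTCA stand for AP-1, the dimer of Fos and Jun proteins. The letters CAGACA stand for the SMAD proteins, which carry TGF-beta signals. The letters TGATGCA stand for the stress factor ATF4, and TATAAA for the TATA box. The CArG box of SRF was searched too.
Thbs4 (chr13:92794769-92795068, minus strand): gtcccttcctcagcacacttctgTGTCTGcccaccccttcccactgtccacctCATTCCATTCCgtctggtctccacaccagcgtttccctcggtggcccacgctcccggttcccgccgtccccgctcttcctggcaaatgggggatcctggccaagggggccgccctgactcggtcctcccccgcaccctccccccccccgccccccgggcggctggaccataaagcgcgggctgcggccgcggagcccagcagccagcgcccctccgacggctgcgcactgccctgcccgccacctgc
Postn (chr3:54360857-54361156, plus strand): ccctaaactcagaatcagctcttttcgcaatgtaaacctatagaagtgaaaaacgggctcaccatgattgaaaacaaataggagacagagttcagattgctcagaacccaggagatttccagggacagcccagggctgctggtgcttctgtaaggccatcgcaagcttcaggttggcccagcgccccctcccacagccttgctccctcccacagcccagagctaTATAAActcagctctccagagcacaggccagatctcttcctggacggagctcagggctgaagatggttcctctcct
Cyr61 (chr3:145649936-145650235, minus strand): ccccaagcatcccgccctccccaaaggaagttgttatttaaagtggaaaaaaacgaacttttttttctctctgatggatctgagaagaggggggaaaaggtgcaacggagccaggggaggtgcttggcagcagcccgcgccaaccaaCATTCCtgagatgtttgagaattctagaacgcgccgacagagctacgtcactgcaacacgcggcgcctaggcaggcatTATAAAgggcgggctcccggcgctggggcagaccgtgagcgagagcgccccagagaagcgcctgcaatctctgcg

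Thbs4 held the TEAD letters at 2 places that overlap by 1 base, at -197 and -192 from the start, and the SMAD letters at -227. Postn held a TATA box at -26 and none of the other motifs. Cyr61 held the TEAD letters at -103 and a TATA box at -25. Of the other windows, Timp1 held the TEAD letters, Tnc, Spp1 and Sparc the SMAD letters, and Tnc and Spp1 a TATA box far from its usual place. Among 32851 promoter windows of this length, 14.7% held the TEAD letters, 21% the SMAD letters, 13.6% the TATA letters, 7.81% AP-1, 3.15% ATF4 and 1.63% a CArG box. No window of the 7 held the AP-1, ATF4 or CArG letters. A match describes letters in a window and is not a binding site.

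Nearly the whole list was higher in the knockout hearts. Thbs4 (14-fold), Ctgf (10.9-fold) and Postn (7.58-fold) rose most, Tnc, Timp1, Mgp and Thbs1 rose 2.07-fold to 4.84-fold, and Cyr61 and Sparc rose by less than 1.5-fold. Spp1 had too few counts to test, and no member fell. Of the 10 members 9 passed the filter on low counts, and all 9 passed the threshold (edgeR quasi-likelihood test, Benjamini-Hochberg FDR 0.05 over 17891 genes), with 26.1% of all genes tested called as higher. Tnc, Thbs4 and Timp1 passed the filter only through their knockout libraries. The 6 members that were above its limit in every control, Ctgf, Cyr61, Postn, Mgp, Thbs1 and Sparc, also all rose. At least 2-fold rises were called for 7 members and for 7.32% of all genes tested. Tnc, Thbs4 and Timp1 are among these 7, beside Ctgf, Postn, Mgp and Thbs1. Knockout and control libraries did not overlap for 7 members, with the knockouts higher, as for 23.9% of all genes tested. Tnc and Thbs4 are among these, beside Ctgf, Cyr61, Postn, Mgp and Thbs1. A rise was favoured in advance for members that entered through their knockouts. Scaling by library totals alone moved the median of all genes by 0.99 log2 units. On that scale 78.6% of genes were called as higher, and the same 9 members rose. The 10 genes together took 0.0976% to 0.178% of nuclear counts in knockouts and 0.0546% to 0.0605% in controls.

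**Figure D1:**
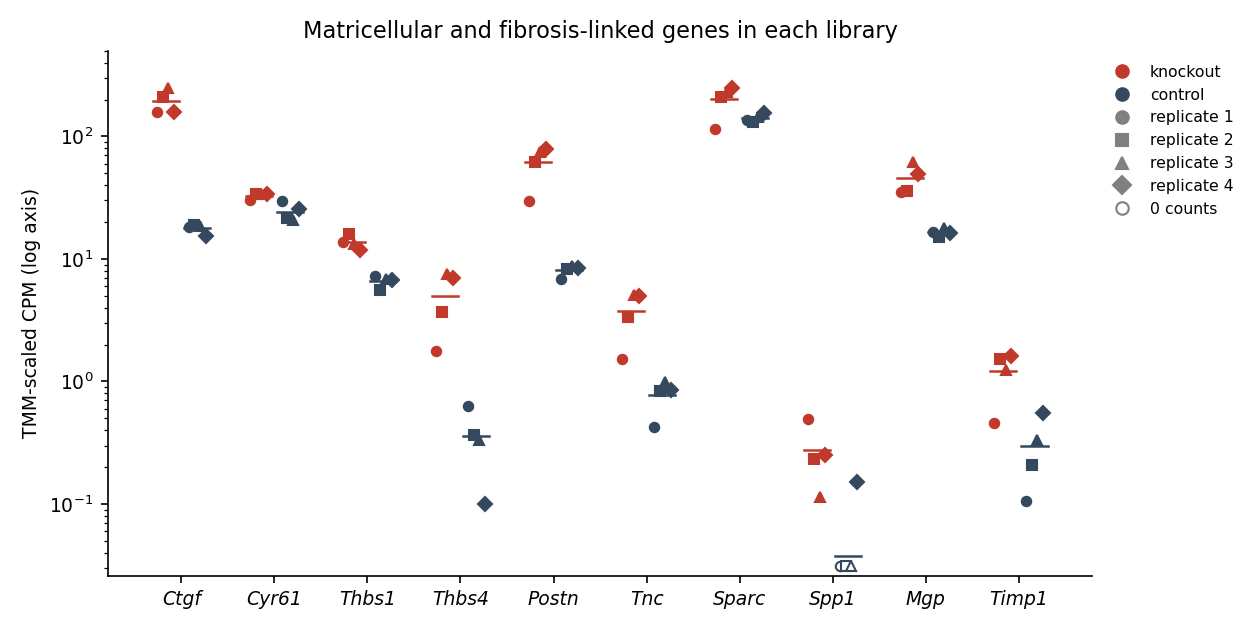
TMM-scaled CPM of each of the 10 genes on a log axis, with 4 knockout libraries at the left and 4 control libraries at the right of each gene, a marker shape for each replicate and a bar at the group mean. Open markers at the bottom stand for 0 counts, all of them Spp1 in controls 1 to 3. Knockout libraries lie above all controls for 7 genes, and overlap with them for Sparc, Spp1 and Timp1.

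The order of the members by level differed from their order by fold change. Per kb of exon, mean levels in knockouts were highest for Ctgf (67.5 ± 15.3 CPM per kb), Sparc (53 ± 15.6) and Mgp (38.3 ± 10.5; SD, n = 4). In controls the order began with Sparc (37.5 ± 2.76 CPM per kb), Mgp (13.9 ± 1.04) and Cyr61 (12.1 ± 2.07), and Ctgf came after them at 6.22 ± 0.545 (SD, n = 4). Per kb Ctgf thus led the order in knockouts and came after 3 other genes in controls. The lead depends on the division by exon length. In CPM without it, Sparc (201 ± 59.1) was above Ctgf (193 ± 43.9) in knockouts. Per kb, the libraries of Ctgf, Sparc and Mgp overlapped between neighbours in knockouts, while Cyr61 (16.2 ± 0.876) and Postn (7.06 ± 2.55) stood apart from their neighbours. In controls Mgp overlapped with Cyr61, and Thbs1 (1.09 ± 0.123) with Postn (0.932 ± 0.0993). Thbs4, Timp1, Tnc and Spp1 were the 4 lowest in both groups, at 0.166 to 1.51 CPM per kb in knockouts and 0.0227 to 0.336 in controls.

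**Figure D2:**
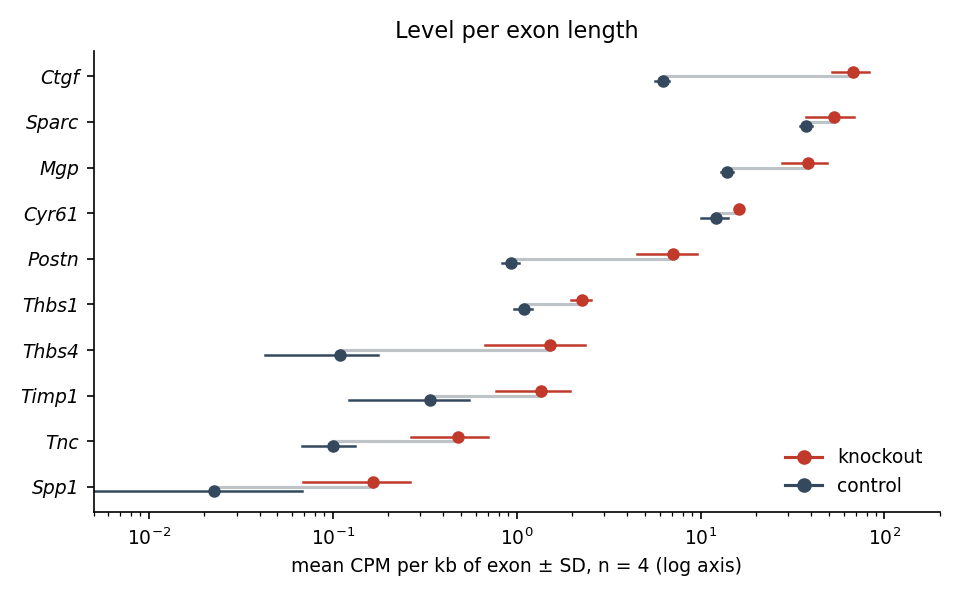
Mean level of each gene in CPM per kb of summed exon length on a log axis, knockout in red above control in dark blue, with bars of 1 SD over 4 libraries (the lower bar of Spp1 in controls is cut at the axis). Ctgf leads the order in knockouts and comes after Sparc, Mgp and Cyr61 in controls, and the 4 lowest genes were the same in both groups.

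The CCN proteins are cysteine-rich matricellular proteins that bind integrins and growth factors. Ctgf (ENSMUSG00000019997.11, now Ccn2, chromosome 10, 24595442 to 24598683 in GRCm38, plus strand) encodes connective tissue growth factor, a TGF-beta and YAP target made by stressed cardiomyocytes and fibroblasts. It held 4108, 7185, 8623 and 5050 counts in knockouts 1 to 4, which is 157, 208, 249 and 159 CPM, against 344, 362, 335 and 311 counts and 18.1, 19, 18.5 and 15.5 CPM in controls 1 to 4. Every knockout library was far above every control, and knockouts 1 and 4 were lower than 2 and 3. The log2 fold change was 3.44 (SE 0.15, 95% interval 3.13 to 3.76, adjusted p = 5.3e-10), which stood above those of 99.4% of genes tested.

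Cyr61 (ENSMUSG00000028195.4, now Ccn1, chromosome 3, 145646976 to 145649981, minus strand), which encodes a CCN protein induced as an immediate early gene, moved far less. It had 30.1, 33.6, 33.6 and 33.6 CPM in knockouts 1 to 4, against 29.8, 21.6, 20.6 and 25.5 CPM in controls 1 to 4. The lowest knockout lay just above the highest control, and the log2 fold change was 0.43 (SE 0.10, adjusted p = 0.00366). Knockouts spread less than controls here, with coefficients of variation of 5.41% and 17.2%, while for Ctgf they were 22.7% and 8.78%. The ratio of Ctgf to Cyr61 within a library, in which scaling cancels, had log2 values of 2.24 to 2.89 in knockouts and -0.72 to -0.15 in controls. The means differed by 2.98 log2 units, which is given as a description, since the pair was chosen with its values known.

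Among the CCN relatives, Wisp2 (Ccn5) averaged 48.7 ± 1.6 CPM in knockouts and 2.71 ± 0.743 CPM in controls (log2 fold change 4.17, SE 0.13, adjusted p = 2.87e-11). Wisp1 (Ccn4) averaged 13.6 ± 4.33 CPM in knockouts and 1.35 ± 0.268 CPM in controls (SD, n = 4 each; 3.32, SE 0.23). Nov (Ccn3) did not pass the threshold (-0.01, SE 0.28, adjusted p = 0.984), but did under library totals (0.95, adjusted p = 0.00527), a value near the shift of all genes.

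An antisense gene shares the place of Ctgf. Gm15270 (chromosome 10, 24549441 to 24597108, minus strand), a noncoding transcript, overlaps 665 bases of Ctgf exons. It held 924, 1595, 1821 and 1082 counts in knockouts 1 to 4, against 84, 99, 93 and 102 in controls 1 to 4 (log2 fold change 3.08, SE 0.14, adjusted p = 1.24e-09). By counts, its knockout libraries came in the order of those of Ctgf. The sources used here do not say whether strand was kept or counted, so reads of the genes cannot be told apart where they overlap, and the counts of both are uncertain there. Antisense exons also overlap Tnc by 176 bases and Thbs1 by 208, where the partners held 9 and 32 counts in knockouts and 2 and 5 in controls. Timp1 lies within the span of Syn1, on the other strand and with no shared exon base, and Syn1 held 44 counts in knockouts and 58 in controls. Gm42793, on the same strand as Spp1, overlaps 309 of the 1648 exon bases of Spp1 and held 0 counts in all libraries, so the counts of Spp1 are uncertain there whether or not strand was counted.

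Thrombospondins are multimeric calcium-binding glycoproteins. Thbs4 (ENSMUSG00000021702.7, chromosome 13, 92751590 to 92794818, minus strand), which in mouse heart acts inside the endoplasmic reticulum with Atf6, held 46, 127, 260 and 222 counts in knockouts 1 to 4, against 12, 7, 6 and 2 in controls 1 to 4. These were 1.76, 3.68, 7.5 and 6.99 CPM in knockouts, against 0.632, 0.367, 0.332 and 0.0997 CPM in controls. The groups did not overlap, and knockout 1 was the lowest of its group. The log2 fold change of 3.81 had a wide interval of 2.69 to 4.92 (SE 0.52, adjusted p = 3.43e-05).

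Thbs1 (ENSMUSG00000040152.8, chromosome 2, 118111876 to 118127133, plus strand), an activator of latent TGF-beta, had 13.8, 15.9, 13.2 and 11.9 CPM in knockouts 1 to 4, against 7.27, 5.55, 6.92 and 6.73 CPM in controls 1 to 4. Knockout libraries were near one another, and all were above the controls (log2 fold change 1.05, SE 0.11, adjusted p = 3.86e-06). The log2 ratio of Thbs4 to Thbs1 was -2.97 to -0.77 in knockouts and -6.08 to -3.52 in controls, a difference of the means of 2.81 log2 units, likewise with no test. Of the other thrombospondin genes, Comp, known from cartilage and tendon, averaged 4.06 ± 0.753 CPM in knockouts and 0.235 ± 0.131 CPM in controls (SD, n = 4 each; 4.08, SE 0.29, adjusted p = 6.23e-08). Its control mean lay below the limit of the low-count filter, which Comp passed through its knockout libraries. Thbs2 (-0.12, SE 0.18) and Thbs3 (0.20, SE 0.18) did not pass the threshold, but did under library totals (adjusted p = 0.000141 and 0.000122).

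Postn (ENSMUSG00000027750.16, chromosome 3, 54361109 to 54391037, plus strand) encodes periostin, which binds integrins and aids collagen crosslinking. It held 781, 2147, 2602 and 2493 counts in knockouts 1 to 4, which is 29.9, 62.1, 75.1 and 78.6 CPM, against 130, 159, 159 and 170 counts and 6.85, 8.33, 8.8 and 8.47 CPM in controls 1 to 4. All knockouts were above the controls, with knockout 1 below the other 3. The log2 fold change was 2.92 (SE 0.24, adjusted p = 3.36e-07), and 3.14 without knockout 1.

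Tnc (ENSMUSG00000028364.15, chromosome 4, 63959785 to 64047015, minus strand), a large glycoprotein of embryonic and injured tissue, was likewise lowest in knockout 1 among the knockouts. It had 1.53, 3.33, 5.08 and 4.98 CPM in knockouts 1 to 4, against 0.422, 0.838, 0.996 and 0.847 CPM in controls 1 to 4 (log2 fold change 2.27, SE 0.37, adjusted p = 0.000158). The groups did not overlap, and the controls held 59 counts in all. The other tenascin genes tested, Tnxb (-0.30, SE 0.14) and Tnr (-0.91, SE 0.38), did not pass the threshold. Under library totals Tnxb stood at 0.73 and passed, and Tnr stood at 0.06.

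Sparc (ENSMUSG00000018593.13, chromosome 11, 55394500 to 55423183, minus strand), a collagen-binding glycoprotein, was the member whose libraries disagreed. It had 115, 211, 231 and 246 CPM in knockouts 1 to 4, against 136, 131, 145 and 155 CPM in controls 1 to 4. Knockout 1 lay below every control and the other knockouts above every control. The log2 fold change of 0.50 (SE 0.17, adjusted p = 0.0281) was 0.69 without knockout 1 (adjusted p = 3.28e-07). The call was lost in DESeq2 (0.52, adjusted p = 0.0844) and when any 1 of controls 1 to 3 or knockouts 2 to 4 was left out (0.39 to 0.51, adjusted p = 0.0555 to 0.0911). In the authors' deposited table the adjusted p of Sparc was 0.08486. Its relative Sparcl1 fell by 0.27 log2 units (SE 0.07, adjusted p = 0.00629), but stood at 0.73 under library totals alone.

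Spp1 (ENSMUSG00000029304.14, chromosome 5, 104435118 to 104441050, plus strand), which encodes osteopontin, a cytokine-like ligand of integrins and Cd44, was near the limit of detection. It held 13, 8, 4 and 8 counts in knockouts 1 to 4, against 0, 0, 0 and 3 in controls 1 to 4. The summed counts of 33 in knockouts and 3 in controls gave a ratio of 6.59 per TMM-scaled library size, with an exact 95% counting interval of 2.07 to 33.6. All 3 control counts lay in control 4. Without it, the 33 knockout counts over a floor of 3 counts for the controls gave 4.86-fold on that scale, with the counting error of the 33 left out. With no filter on low counts the log2 fold change was 2.66 (SE 0.82, edgeR adjusted p = 0.00928), and the authors' deposited table gives 1.564 with an adjusted p of 0.02032. Spp1 was the 1 member that was highest in knockout 1.

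Mgp and Timp1 encode inhibitors. Mgp (ENSMUSG00000030218.2, chromosome 6, 136872435 to 136875823, minus strand) encodes matrix Gla protein, a vitamin K dependent inhibitor of calcification that binds BMPs. It had 35.5, 35.7, 61.5 and 49.2 CPM in knockouts 1 to 4, against 16.6, 15, 18 and 16.2 CPM in controls 1 to 4. Knockouts 1 and 2 were lower than 3 and 4, and all were above the controls (log2 fold change 1.47, SE 0.16, adjusted p = 3.23e-06).

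Timp1 (ENSMUSG00000001131.11, chromosome X, 20870166 to 20874735, plus strand), an inhibitor of matrix metalloproteinases, held 12, 53, 43 and 51 counts in knockouts 1 to 4, against 2, 4, 6 and 11 in controls 1 to 4. On the CPM scale knockout 1 (0.459) was below control 4 (0.548), so the groups overlapped. The log2 fold change was 2.01 (SE 0.46, adjusted p = 0.00217) and ran from 1.73 to 2.49 with 1 library left out. Of its paralogs Timp3 rose (0.66, SE 0.15, adjusted p = 0.00192), and Timp2 (0.12) and Timp4 (0.06) did not pass the threshold, but did under library totals (1.13 and 1.01).

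**Figure D3:**
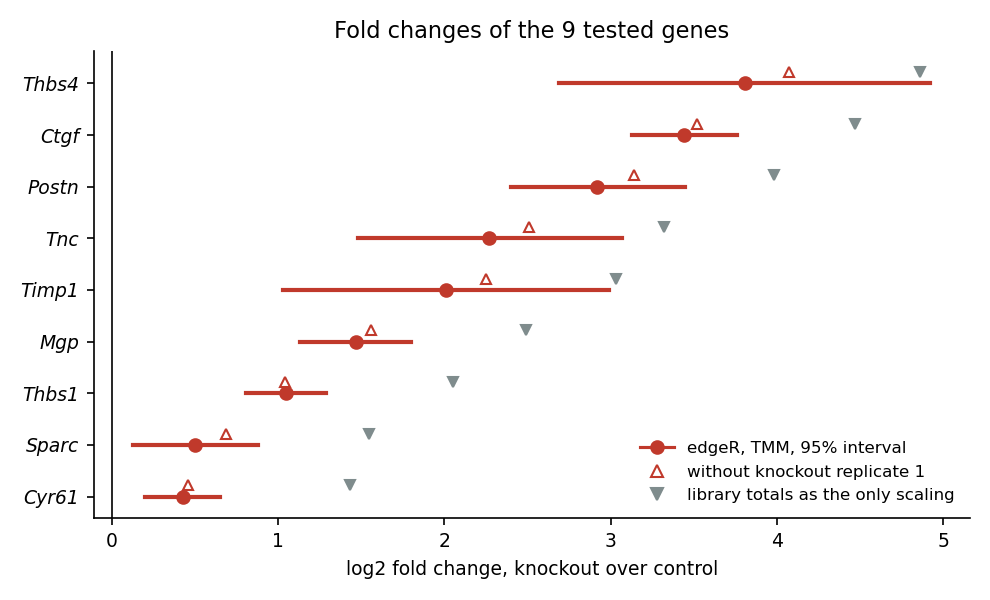
Log2 fold change of knockout over control for the 9 tested genes, with 95% intervals of the edgeR test (red), the value without knockout replicate 1 (open triangle) and the value under library totals alone (grey). All intervals lie above 0, with fold changes of 0.43 for Cyr61 to 3.81 for Thbs4, and the library totals move all 9 genes up.

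The knockout libraries differed among themselves in a way that split the list. Knockout 1 was the lowest knockout for 8 of the 10 genes. For Thbs4, Postn, Tnc, Timp1 and Sparc it was lower than each other knockout by more than 1.5-fold, whereas for Ctgf, Cyr61, Thbs1 and Mgp it lay within or next to the range of the others. The same library had the lowest summed level of fibroblast markers among all 8 (408 CPM, against 549 to 641 in knockouts 2 to 4 and 504 to 528 in controls). The activated fibroblast list summed to 93.9 CPM in knockout 1 and 154 to 194 CPM in knockouts 2 to 4, against 47.1 to 59 CPM in controls. Ankrd1, a YAP-TEAD target, was highest in knockout 1 (1819 CPM, against 1546 to 1671 in knockouts 2 to 4 and 162 to 224 in controls), and the other target genes summed to 332 CPM there, within the 288 to 345 of knockouts 2 to 4, against 268 to 291 in controls. Cardiomyocyte markers summed to 12959 CPM in knockout 1 and 8189 to 9991 CPM in knockouts 2 to 4, against 15798 to 16605 CPM in controls. Collagen chains and crosslinking enzymes summed to 985 CPM in knockout 1 and 1592 to 1601 CPM in knockouts 2 to 4, against 931 to 1040 CPM in controls. This sum is not independent of the fibroblast sums. The list shares Col1a1, Col1a2 and Col3a1 with the fibroblast markers and Lox with the activated fibroblast list. The part of these differences between libraries in the results was not tested.

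**Figure D4:**
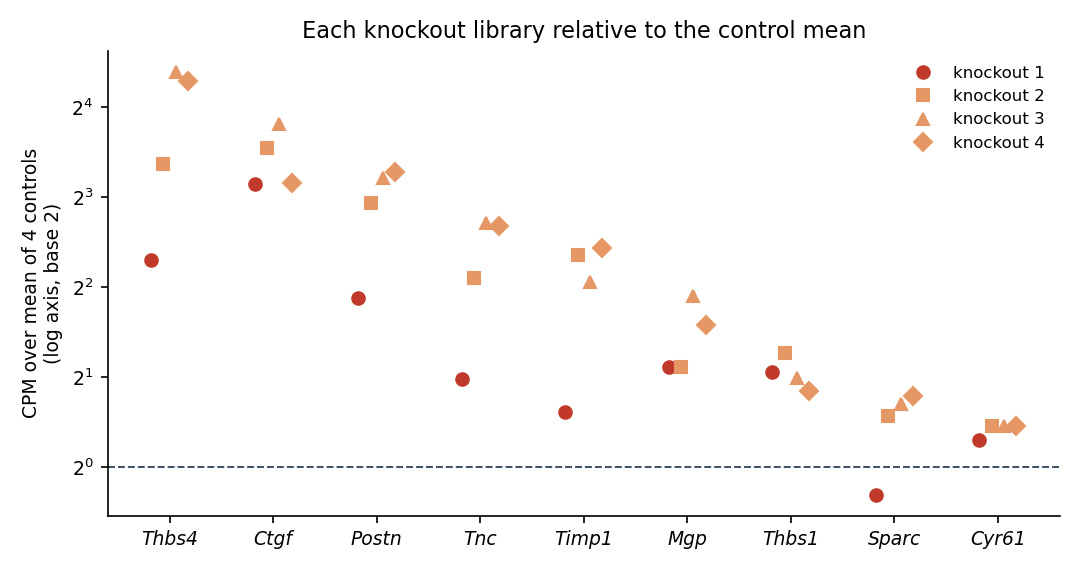
CPM of each knockout library divided by the mean of the 4 controls, on a log axis of base 2, for the 9 tested genes. Knockout 1 (red circle) lies below the other knockouts for Thbs4, Postn, Tnc, Timp1 and Sparc, and for Sparc below the control mean (dashed line).

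Of 12 fibroblast markers 5 rose and 2 fell, with a median log2 fold change of 0.35, against -0.01 over all genes tested. Mfap5 (2.19), Col1a1 (1.17), Col1a2 (1.16), Pi16 (0.87) and the lineage factor gene Tcf21 (0.44, SE 0.16, adjusted p = 0.0347) rose, and Gsn and Dpt (-0.69 each) fell, at 0.30 and 0.32 under library totals. Pdgfra (0.15), Dcn (0.22), Ddr2 (0.06), Lum (0.27) and Col3a1 (0.67) did not pass the threshold. Under library totals 10 of the 12 rose and 0 fell. Divided by the summed fibroblast markers of the same library, 7 members were higher in every knockout than in every control, as were 15.3% of all genes tested after the same division. These were Ctgf, Postn, Mgp, Tnc, Thbs1, Thbs4 and Timp1, with group means 0.95 to 3.76 log2 units apart, and Cyr61 and Sparc (0.34 each) overlapped. Of these, Tnc, Thbs4 and Timp1 passed the low-count filter only through their knockout libraries, so a rise was favoured in advance for them. Timp1, whose groups overlap in CPM, was apart here by little (lowest knockout -9.80, highest control -9.84), and the divisor is lowest in knockout 1. Of 8 activated fibroblast markers 5 rose and 1 fell. Cilp, a matrix protein of activated cardiac fibroblasts, rose 15.8-fold, and the smooth muscle actin gene Acta2, the usual mark of myofibroblasts, fell (log2 fold change -1.07, SE 0.15, adjusted p = 4.18e-05), though it missed the threshold under library totals (-0.11). Of 12 macrophage markers Lgals3 rose and 4 fell, with summed levels of 113 to 188 CPM in knockouts and 141 to 200 in controls. Lgals3 averaged 18.2 ± 10.2 CPM in knockouts and 0.324 ± 0.196 CPM in controls (SD, n = 4 each). Its control mean lay below the limit of the low-count filter, which Lgals3 passed through its knockout libraries, so a rise was favoured in advance. Smooth muscle, pericyte and endothelial markers rose in 1 of 7, 1 of 7 and 1 of 9 (Des, Cspg4 and Vwf), and fell in 2, 4 and 3. Acta2, among the smooth muscle falls, and Tagln, which did not pass the threshold, are also in the activated fibroblast list. Over all genes tested 26.1% rose and 23.9% fell. Des was by far the highest marker of the smooth muscle list (1259 ± 76.8 CPM in knockouts, 693 ± 28.6 CPM in controls). Under library totals the marker counts turned round. There 5 smooth muscle, 5 pericyte, 9 endothelial and 10 macrophage markers were called as higher, and 1, 0, 0 and 0 as lower. Valve, tendon and cartilage markers rose in 3 of 5 tested and fell in 1 (Cytl1, at 0.18 under library totals), with sums of 13.6 to 15.3 CPM in knockouts and 7.01 to 8.37 in controls. Atrial markers rose in 2 of 4 tested (Dkk3 and Bmp10) and fell in 1 (Stard10), with sums of 8.94 to 17.7 CPM in knockouts, highest in knockout 1, and 4.04 to 5.92 in controls. Bmp10 averaged 6.71 ± 4.38 CPM in knockouts and 0.0125 ± 0.0249 CPM in controls (SD, n = 4 each). It passed the low-count filter only through its knockout libraries, so a rise was favoured in advance for it. None of the tested markers of other leukocytes (2), epicardium (3) or Schwann cells (4) rose, and 2, 2 and 1 fell, of which Ptprc and Sox10 turned positive under library totals (0.44 and 0.05). No listed marker was without counts in all libraries. Their part in the rises was not tested.

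Related lists hold the ligands, receptors, targets and enzymes around these proteins. Over all genes tested 26.1% rose and 23.9% fell, with a median of -0.01. Of 20 further matricellular genes tested 11 rose and 3 fell (median 0.46). Besides Wisp2 and Wisp1, Fbln2, a fibulin of the matrix, rose 2.6-fold (1.38, SE 0.09). Smoc2, Fbln1 and Sparcl1 fell (-1.01, -0.71 and -0.27), but stood at 0.01, 0.26 and 0.73 under library totals.

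TGF-beta signalling genes rose in 8 of 21 and fell in 3 (median 0.16). Ltbp2, of the family of latent TGF-beta binders, rose 15-fold, and the ligand gene Tgfb2 rose 6.36-fold. Tgfb2 averaged 35.7 ± 15.6 CPM in knockouts and 5.63 ± 0.115 CPM in controls (SD, n = 4 each), and the ligand gene Tgfb1 did not pass the threshold (0.10, SE 0.16), but did under library totals (1.11). The latent TGF-beta binder Ltbp1 (-1.36), the coreceptor Tgfbr3 (-0.71) and the signal transducer Smad3 (-0.66) fell, with Tgfbr3 and Smad3 at 0.26 and 0.33 under library totals.

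Of 15 Hippo kinases and YAP-TEAD factors 5 rose and 1 fell (median 0.14). Mob1b, a kinase cofactor (1.28), Wwtr1, which encodes the YAP paralog TAZ (0.79), and the kinase gene Stk4 (0.60) rose, Tead3 fell (-0.34, but 0.65 under library totals), and Yap1 did not pass the threshold (0.13, SE 0.07), but did under library totals (1.12). Of 17 target genes of these factors other than the members 8 rose and 2 fell (median 0.28). Ankrd1, also a stretch and stress gene of muscle, rose 8.94-fold (3.16, SE 0.12), Gadd45a 3.6-fold and Nt5e 2.64-fold. Dock5 (-1.10) and Arhgef17 (-0.78, but 0.22 under library totals) fell. Immediate early and SRF genes rose in 11 of 20 and fell in 3 (median 0.48). Myc rose 17.9-fold, Atf3 6.13-fold and Junb 1.91-fold, and Fosl1 (-0.82), Jun (-0.63) and Dusp1 (-0.38) fell, all 3 turning positive under library totals (0.16, 0.36 and 0.60). Myc was low in controls, at 0.569 ± 0.326 CPM, against 10.3 ± 3.18 CPM in knockouts (SD, n = 4 each).

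Receptors of the members rose in 9 of 19 and fell in 3 (median 0.24). The integrin genes Itgb5 (1.31) and Itga5 (0.59) rose, as did Cd63, which encodes a binding partner of Timp1 (1.44). Itgb6, an integrin that activates latent TGF-beta, fell most (-4.26, SE 0.25), to 1.66 ± 0.981 CPM in knockouts, against 32.8 ± 3.72 CPM in controls (SD, n = 4 each). Cacna2d1, a calcium channel subunit that binds thrombospondins (-1.11), and Itga7 (-0.38, but 0.60 under library totals) fell too. Metalloproteinase and TIMP genes rose in 10 of 25 and fell in 3 (median 0.24), with Adam9 (1.10), Adam19 (1.04) and Adamts1 (0.90) higher and Mmp15 (-1.88), Adamts15 (-1.39) and Adam17 (-0.37, but 0.64 under library totals) lower. Ltbp1, Dock5, Cacna2d1 and Adamts15 stayed negative under library totals but missed the threshold.

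Collagen chains and crosslinking enzymes rose in 12 of 29 and fell in 4 (median 0.26). The crosslinking enzyme genes Lox (8.33-fold), Loxl4 (4.2-fold) and Tgm2 (3.12-fold) rose, as did the collagen chain genes Col8a1 (7.74-fold) and Col12a1 (5.9-fold). Col6a3 (-1.05), the collagen chaperone gene Serpinh1 (-0.71) and the prolyl hydroxylase gene P4ha1 (-0.59) fell, and stood at 0.03, 0.32 and 0.41 under library totals. Of 14 genes around Mgp 4 rose and 3 fell (median 0.32). Vkorc1l1, of the vitamin K cycle (0.46), Bmp6 (0.57) and Bmpr2 (0.39) rose. The vitamin K dependent carboxylase gene Ggcx (-0.84), the pyrophosphate transporter gene Ank (-0.59) and Bmp2 (-0.84) fell, but were at 0.16, 0.40 and 0.14 under library totals.

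Of 15 genes of Atf6 and the chaperones of the endoplasmic reticulum 3 rose and 6 fell (median -0.26). Atf6 rose 2.34-fold to 229 ± 8.38 CPM in knockouts, against 98 ± 4.68 CPM in controls (SD, n = 4 each), Ddit3 rose 5.29-fold and Dnajb11 1.35-fold. The chaperone genes Pdia4 (-0.61), Hsp90b1 (-0.35) and Calr (-0.33) fell, and stood at 0.39, 0.62 and 0.67 under library totals.

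**Figure D5:**
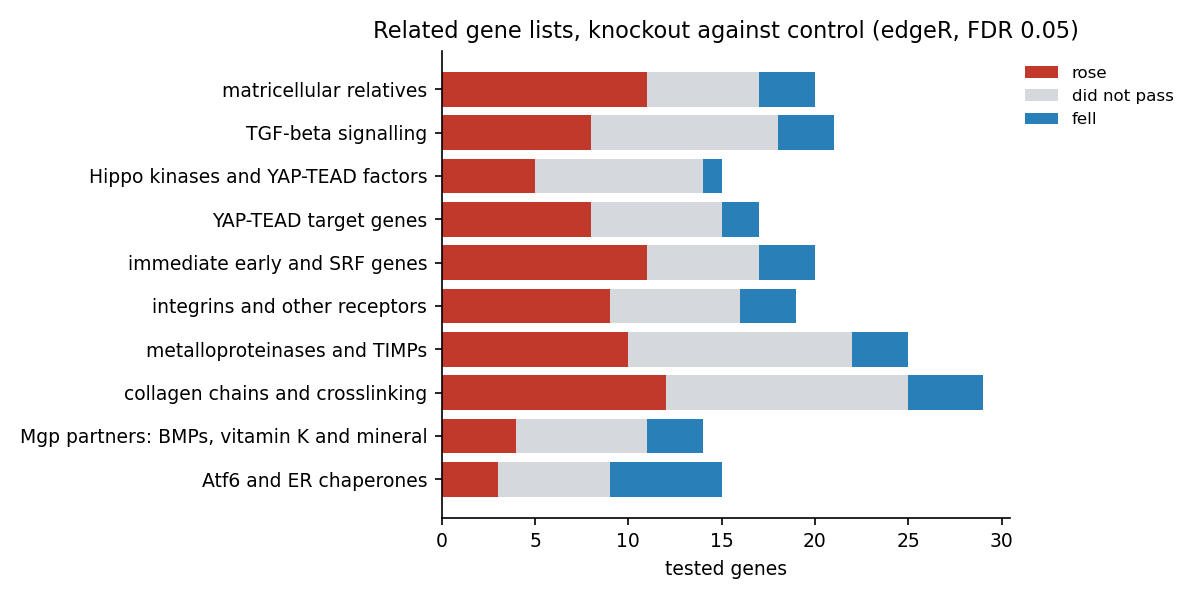
Number of tested genes in each of 10 related lists that rose (red), did not pass the threshold (grey) or fell (blue) in knockouts against controls. Rises outnumber falls in 9 lists, and falls outnumber rises, 6 against 3, among Atf6 and the chaperones, where 14 rise and 0 fall under library totals.

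The genes whose profile over the 8 libraries was closest to a member were sought among 12706 genes, by the root mean square difference of log2 CPM centred on the control mean. Nearest to Thbs4 were Adap1 (0.44), the cartilage intermediate layer protein gene Cilp (0.46) and Cpxm2 (0.50). Nearest to Ctgf were Aldh18a1, of proline synthesis (0.19), Map1b, of microtubules (0.19), and Otub2, a deubiquitinase (0.20). Nearest to Postn were the matrix genes Mfap4 (0.15), Col8a1 (0.16) and Svep1 (0.20). Likeness over 8 libraries that differ by genotype describes these profiles and shows no shared control.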

How the data were processed

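RNA of crude mitochondria of 8 mouse hearts went into TruSeq libraries for MiSeq sequencing of paired ends, per the labels' protocols. The submitters' processing notes name DESeq2 1.14.1, R 3.3.2, featureCounts, bedtools, SAMtools 1.3.1, Bowtie2 and the build mm10, with no roles. The deposited raw counts are whole numbers per gene, and the deposited normalized signal equals them times 1 constant per library. The authors' deposited table holds a mean signal, log2 fold changes and log2 errors, a test score, raw p-values and adjusted ones, with settings not given in the sources used here.

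Counts were tested with edgeR 4.0.16 in R 4.3.3 (quasi-likelihood F test, two-sided, TMM factors of 0.689 to 1.61, filterByExpr with a minimum count of 10) over 17891 genes. Alternatives were RLE, library totals, no filter, DESeq2 1.42.0, limma 3.58.1 voom with group weights, nuclear genes alone, a replicate block and leaving out each library. Each standard error was taken as the size of the log2 change divided by the square root of F. The series text describes separate mice. In counts simulated for this comparison (17668 genes) edgeR recovered 74% of 1.5-fold and 92% of 2-fold changes, with 3 false calls of 183. Whether these rates hold for the measured counts, in which 8943 of 17891 genes were called, was not tested. Replicates within a group were not copies of each other. Chi-square per degree of freedom was 2.42 to 3.7 for control pairs and 7.82 to 14.2 for pairs of knockouts 2 to 4. It was 81.6 to 125 for pairs with knockout 1. Reads are not independent molecules, so counting intervals cover counting error alone, and floors only that of the group without counts.

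The GENCODE annotation of GRCm38 gave positions and exon lengths for all 10 members. Members, lists and pairs were chosen with earlier results of these data known. All members are named, and from each related list the 3 called genes of smallest p in each direction, of which 1 is not reported here. The ratios of member pairs were added after the data were seen. Comp, Nov, Thbs2, Thbs3, Tnxb, Tnr, Timp2 to Timp4, Tgfb1, Yap1, Col8a1, Col12a1, Gm15270 and the cell markers were named after their values were seen. Figures were drawn with matplotlib 3.10.9.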

Additional observations from a re-analysis of the deposited data

Results flagged for a closer look

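In a test for a single library far from its group, 2 of 20 groups of 4 libraries were singled out, and chance gives about 1 in 20. Cyr61 stood at 30.1 CPM in knockout 1, against 33.6 CPM in each of knockouts 2 to 4, a gap of 0.995 of the whole range. The range itself is narrow, and knockout 1 was still above the highest control. Spp1 stood at 0.15 CPM (3 counts) in control 4, against 0 in controls 1 to 3.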

How the results depend on the processing

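Of 135 values of the 9 tested members over 15 alternatives, 128 kept direction and call, 7 lost the call (all Sparc) and 0 changed sign. Under library totals alone 14066 genes rose and 480 fell, against 4669 and 4274, and the same 9 members were called. With 1 library left out 8 to 9 members rose and 0 fell, and 4307 to 4909 genes rose and 3818 to 4716 fell. With no filter 10 members rose, since Spp1 entered. Same-numbered libraries did not deviate together (correlations of deviations -0.0136 to 0.0497). This gives no sign that the numbers pair animals, but cannot exclude it. With a replicate block 9 members rose and 0 fell, and 4580 genes rose and 4253 fell. Of 660 counts of list genes 76 moved by over 1.5 times, 39 of them under library totals. Depth limits Spp1, Timp1 and Thbs4, which held 3, 23 and 27 counts over the controls.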
